A study of Mus musculus with 8 samples.

Results

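Laminins are the cross-shaped proteins on which basement membranes are built, and each one joins an alpha, a beta and a gamma chain. The 9 genes described here are Lama1, Lama2, Lama3, Lama4, Lama5, Lamb1, Lamb2, Lamb3 and Lamc1, which encode the alpha chains, the beta chains and the most widely used gamma chain. They were chosen by name, under no threshold on a measured value, and are 9 of 21812 gene symbols in the count table, of which 18285 had a count. All 9 passed the filter on low counts, although Lama2 and Lamb3 reached its level of 0.592 CPM (counts scaled to library size) in only 7 of the 8 libraries.

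The chains pair up inside the endoplasmic reticulum, beta with gamma first, and the alpha chain joins last and allows secretion. The trimer of Lama1, Lamb1 and Lamc1 products is the first laminin of the mouse embryo, and primitive endoderm and its parietal derivative are known for making it in bulk. Secreted laminin polymerises, binds nidogen, perlecan and type IV collagen, and is held at the cell surface by integrins and dystroglycan. Lama5 can take the place of Lama1 in the trimer and is the widespread alpha chain of epithelia, whereas Lama2 and Lama4 are typical of muscle, mesenchyme and vessels, and Lama3 and Lamb3 of stratified epithelium.

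RNA was measured in mouse embryonic stem cells (mESC) that were grown in a medium inducing primitive endoderm (PrE), the extraembryonic endoderm of the blastocyst. The 8 libraries form 4 groups of 2, labelled WT or cKO for Mettl3 and WT or cKO for Virma (Mettl3 WT, Mettl3 cKO and so on). METTL3 is the enzyme, and VIRMA a scaffold, of the machinery that deposits N6-methyladenosine (m6A) on messages. Both cKO groups and both WT groups were in the same medium, so no library shows the cells before induction. The labels give neither the allele, the way of deletion, the number of clones nor separate cultures, so p-values measure only the spread between these libraries, which may be technical.

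Total counts ranged from 15568628 to 17306227 per library. The Mettl3 WT libraries had a count for 15452 and 15415 genes, and the other libraries for 16476 to 17086. Whether this bears on the chains with few counts was not tested. Over 14680 genes the paired Virma cKO libraries differed less than sampling noise allows (chi-square 0.914 for each degree of freedom). They were therefore counted as 1 sample, except where 8 separate libraries are named, and that group has no SD. Where both libraries together held 10000 or more counts for a gene, they did differ beyond sampling noise (3.47). Mettl3 RNA stood at 35.7 and 35.2 CPM in Mettl3 WT and at 35.3 and 33.9 CPM where the label was Mettl3 cKO, a log2 difference of −0.04 ± 0.07 (SE) that did not pass the test (edgeR, Benjamini-Hochberg adjusted p = 0.695). Virma RNA stood at 93.3 and 88.7 CPM in Virma WT and at 70.8 and 73.8 CPM where the label was Virma cKO, and fell by 0.33 ± 0.06 on the log2 scale (edgeR, adjusted p = 0.000102). Mettl3 RNA also fell in those libraries, by 0.42 ± 0.09 against Virma WT (edgeR, adjusted p = 0.000232). Between the controls, Mettl3 RNA was higher in Virma WT than in Mettl3 WT, by 0.34 ± 0.07 (edgeR, adjusted p = 0.000198). Counts over whole genes need not show a partial deletion, so Mettl3 RNA did not check its label. The stem cell marker Pou5f1 was present in every library, at 492 to 627 CPM in the first 3 groups and at 310 and 311 CPM in Virma cKO. Nanog, another such marker, stood at 113 to 138 CPM in the first 3 groups and at 58.7 and 60.6 CPM in Virma cKO. Sox2, a further one, stood at 51.3 to 64.8 CPM over all libraries.

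Promoter sequence is printed for 2 chains that moved in opposite directions in Virma cKO. RefSeq windows on GRCm38.p6 were at hand for 5 of the 9 chains (Lamb3, Lama5, Lamb2, Lama2 and Lamb1). The 250 bases before the start of Lamb1, which fell in both knockouts, lie at chr12:31265043-31265292 on the plus strand. Those of Lama5, which was higher in Virma cKO, lie at chr2:180225860-180226109 on the minus strand. Both are printed 5′ to 3′, with GC boxes (GGGCGG, or CCGCCC on the other strand) in capitals.

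Lamb1: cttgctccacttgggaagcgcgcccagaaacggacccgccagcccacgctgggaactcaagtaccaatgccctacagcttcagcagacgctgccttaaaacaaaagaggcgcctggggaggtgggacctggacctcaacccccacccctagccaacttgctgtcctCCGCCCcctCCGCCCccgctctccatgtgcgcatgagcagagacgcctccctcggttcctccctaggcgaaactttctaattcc
Lama5: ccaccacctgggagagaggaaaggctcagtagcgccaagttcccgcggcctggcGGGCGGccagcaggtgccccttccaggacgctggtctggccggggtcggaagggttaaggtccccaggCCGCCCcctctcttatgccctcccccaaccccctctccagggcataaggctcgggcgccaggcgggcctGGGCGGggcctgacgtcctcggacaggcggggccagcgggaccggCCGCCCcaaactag

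Lamb1 had 2 GC boxes and a GC content of 62.0%, and Lama5 had 4 GC boxes and a GC content of 72.4%, beside a median of 52.4% over all 32851 windows. The windows of Lama2, Lamb2 and Lamb3 held no GC box, although Lama2 and Lamb3 were higher in Virma cKO like Lama5. A GC box stood in 32.7% of all windows. The GATA letters TGATAA and AGATAA, the SOX letters ACAATG and ACAAAG, and the TATA letters TATAAA were searched on both strands as well. None of them was found in the windows of these 5 chains, and they stood in 7.94%, 9.99%, 10.7%, 16.5% and 12.4% of all windows respectively. A match or its absence in such a window describes letters only.

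The chains of the embryonic trimer were lower in both knockouts, and far more so in Virma cKO. Lama1 fell 1.71-fold in Mettl3 cKO and 9.49-fold in Virma cKO, Lamb1 fell 1.61-fold and 4.41-fold, and Lamc1 fell 1.60-fold and 3.59-fold. The other alpha and beta chains did not follow them: Lama5, Lama2, Lama4 and Lamb3 were higher in Virma cKO, Lamb2 did not pass the test there, and only Lama3 was lower with the trimer. The share of all counts that fell on the 9 chains was 0.915 and 0.916% for the Mettl3 WT libraries and 0.587 and 0.587% for Mettl3 cKO. For the Virma WT libraries it was 0.724 and 0.725%, and for Virma cKO 0.212 and 0.211%. In bulk RNA, fewer cells of a type and less RNA per cell cannot be told apart.

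**Figure D1:**
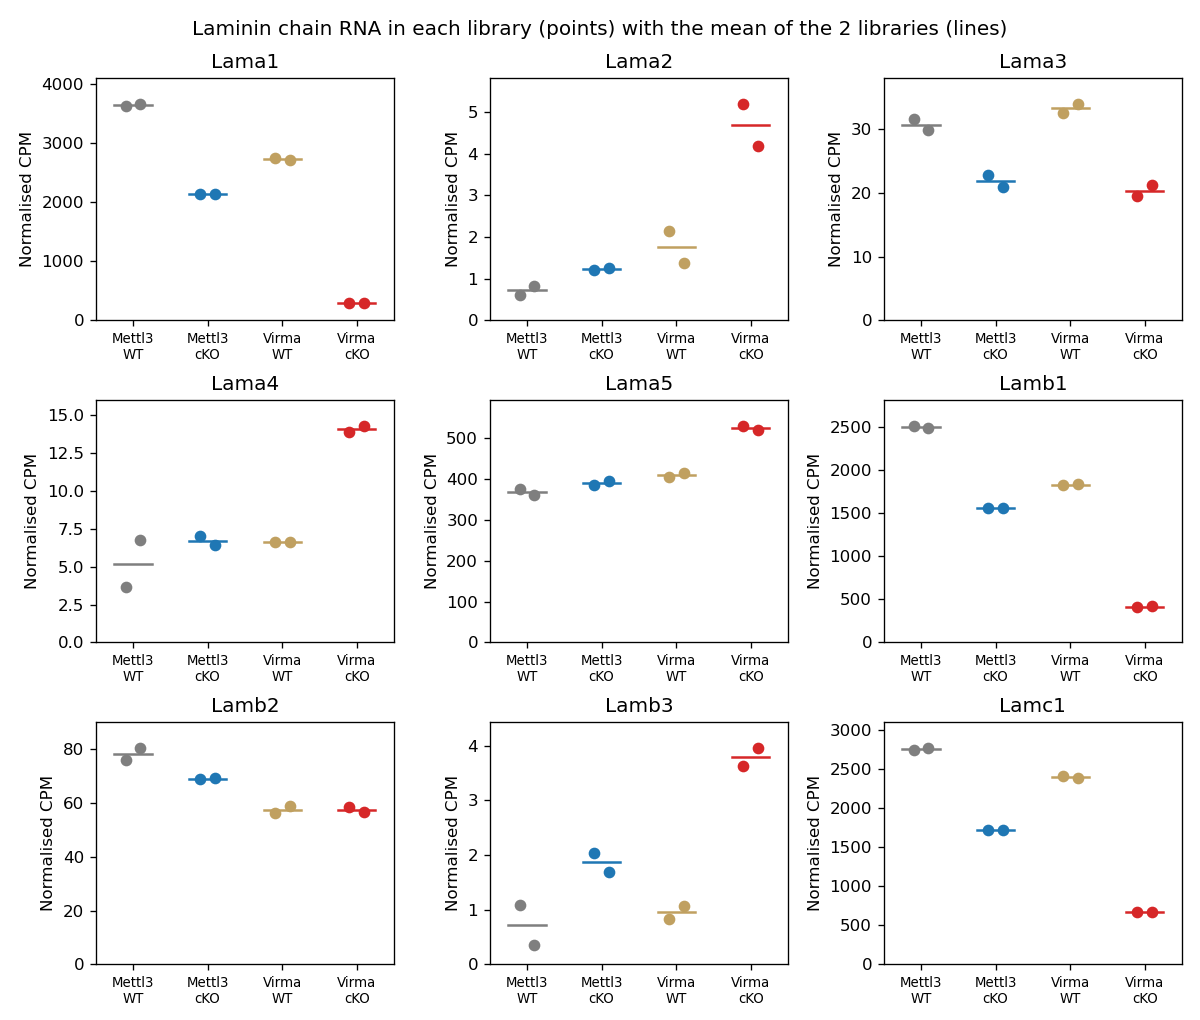
Normalised CPM (y axis, linear, from 0) of each of the 9 laminin chains in the 4 groups (x axis), with 1 point per library and a line at the mean of the 2 libraries. Lama1, Lamb1 and Lamc1 are lowest in Virma cKO and highest in Mettl3 WT, while Lama2, Lama4, Lama5 and Lamb3 are highest in Virma cKO.

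Across the 9 chains, 5 were called lower and 2 higher in Mettl3 cKO against Mettl3 WT, at an adjusted p under 0.05. Over all 14229 genes tested, 55.1% were called in that comparison, 28% lower and 27.1% higher. In Virma cKO against Virma WT, 4 chains were called lower and 4 higher, where 52.3% of all genes were called, 26.1% lower and 26.2% higher. The median log2 fold change of the 9 chains was −0.18 and −0.00, beside 0.01 and 0.02 over all genes. Scaling by total count without TMM factors moved the median of all genes in the Virma comparison to 0.15 and the split from 3721 higher and 3718 lower to 4967 higher and 2624 lower, and no chain changed its call there.

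**Figure D2:**
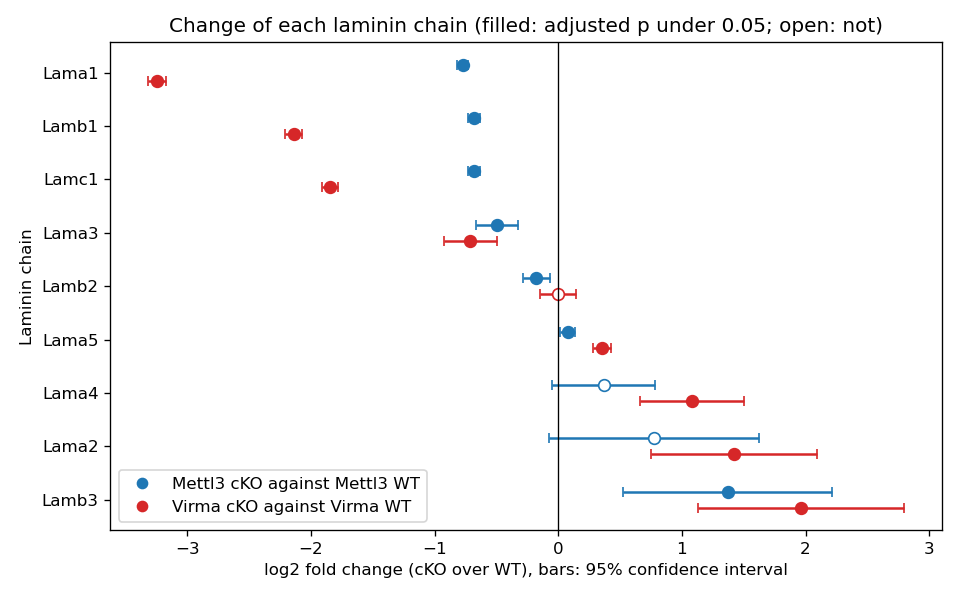
Log2 fold change of each laminin chain (x axis) in Mettl3 cKO against Mettl3 WT and in Virma cKO against Virma WT, with 95% confidence intervals as bars and open points where the adjusted p was not under 0.05. Lama1 has the lowest value in both comparisons, −0.77 and −3.25, and Lamb3 the highest, 1.37 and 1.97.

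Lama1, the alpha chain of the embryonic trimer, had 3632 and 3653 CPM in the Mettl3 WT libraries, against 2130 and 2136 for Mettl3 cKO. The Virma WT libraries had 2742 and 2718 CPM, against 289 and 287 for Virma cKO. No groups overlapped, and the libraries of each group lay close together. The log2 change was −0.77 ± 0.02 in Mettl3 cKO (edgeR, adjusted p = 2.03e-17) and −3.25 ± 0.03 in Virma cKO (adjusted p = 3.13e-27). The order from high to low was Mettl3 WT, Virma WT, Mettl3 cKO and Virma cKO. Its first steps passed the test (Virma WT against Mettl3 WT, −0.42 ± 0.02, and Mettl3 cKO against Virma WT, −0.36 ± 0.02, edgeR adjusted p = 3.92e-13 and 3.23e-12), and its last was not tested.

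Lamb1, the beta chain of the same trimer, had 2503 and 2481 CPM in the Mettl3 WT libraries, against 1551 and 1551 for Mettl3 cKO. For Virma WT it was at 1818 and 1832 CPM, and for Virma cKO at 409 and 421. The groups stood in the same order as for Lama1 without overlap. The log2 change was −0.68 ± 0.02 in Mettl3 cKO (edgeR, adjusted p = 8.11e-17) and −2.14 ± 0.03 in Virma cKO (adjusted p = 4.9e-24).

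Lamc1, the gamma chain shared by most laminins, had 2744 and 2761 CPM in the Mettl3 WT libraries, against 1718 and 1722 for Mettl3 cKO. Levels for Virma WT were 2410 and 2382 CPM, against 673 and 664 for Virma cKO. It kept the order of its partners, with the smallest fall of the 3 in Virma cKO. The log2 change was −0.68 ± 0.02 in Mettl3 cKO (edgeR, adjusted p = 8.11e-17) and −1.84 ± 0.03 in Virma cKO (adjusted p = 3.46e-23).

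The control libraries of the lines were not level for these chains. Virma WT stood below Mettl3 WT by a log2 difference of −0.42 for Lama1, −0.45 for Lamb1 and −0.20 for Lamc1, all past the test. Of the 9 chains, 4 were called lower and 2 higher between the controls, where 47.6% of all genes were called, 22.2% lower and 25.4% higher. Set against Virma WT instead of their own control, the Mettl3 cKO libraries were lower by −0.36 for Lama1, −0.24 for Lamb1 and −0.48 for Lamc1 (log2), smaller falls than against Mettl3 WT. In that comparison 5 chains were called lower and 2 higher, where 58.5% of all genes were called, 29.2% lower and 29.3% higher. The comparisons share libraries and are given side by side only.

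The falls of the trimer differed between the lines by their own test. The Virma effect exceeded the Mettl3 effect by −2.47 ± 0.04 for Lama1, −1.46 ± 0.04 for Lamb1 and −1.16 ± 0.04 for Lamc1 on the log2 scale (edgeR interaction contrast, adjusted p = 2.57e-23, 9e-19 and 4.29e-17). Lama5 was the other chain called, with a difference of 0.28 ± 0.05 (adjusted p = 4.11e-05, edgeR). So 3 chains were called lower and 1 higher, where 39.1% of all genes were called, 21.2% lower and 17.9% higher. The difference for Lama4, 0.72 ± 0.29, fell just short (adjusted p = 0.0523, edgeR) and passed under several alternatives, among them with all 8 libraries taken separately (adjusted p = 0.0177). Without Mettl3 WT replicate 1 it was 1.09 (edgeR, adjusted p = 8.2e-06), and without Mettl3 WT replicate 2 it was 0.21 (adjusted p = 0.527).

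Lama5, the alpha chain that can replace Lama1, had 377 and 362 CPM in the Mettl3 WT libraries, against 384 and 395 for Mettl3 cKO. The Virma WT libraries had 406 and 414 CPM, against 529 and 520 for Virma cKO. The groups did not overlap, but the first 3 lay close together. Lama5 rose by 0.35 ± 0.04 (log2) in Virma cKO (edgeR, adjusted p = 1.1e-08), and that value was 0.13 after a trend with transcript length and GC content was removed, still past the test (adjusted p = 0.00402). In Mettl3 cKO the difference was 0.08 ± 0.03 (edgeR, adjusted p = 0.0365). That call was lost with DESeq2 (adjusted p = 0.185), with its size factors, and without Mettl3 WT replicate 2 or Mettl3 cKO replicate 2. With the length and GC trend removed its direction turned (−0.02), and against Virma WT it was −0.08.

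Lama2, the alpha chain of muscle and peripheral nerve basement membranes, had 0.599 and 0.838 CPM in the Mettl3 WT libraries, against 1.20 and 1.27 for Mettl3 cKO. For Virma WT it was at 2.15 and 1.37 CPM, and for Virma cKO at 5.19 and 4.19. These values rest on 10 to 86 counts per library. Lama2 rose by 1.42 ± 0.32 (log2) in Virma cKO (edgeR, adjusted p = 0.000736), while the difference in Mettl3 cKO, 0.78 ± 0.41, did not pass (adjusted p = 0.113). Without Mettl3 WT replicate 2 the Mettl3 cKO difference was 1.04 (edgeR, adjusted p = 0.0487), and against Virma WT it was −0.51 (adjusted p = 0.211).

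Lama4, the alpha chain of vessels and mesenchyme, had 3.66 and 6.76 CPM in the Mettl3 WT libraries, against 7.03 and 6.41 for Mettl3 cKO. Levels for Virma WT were 6.62 and 6.62 CPM, against 13.9 and 14.3 for Virma cKO. Only Virma cKO stood clear of the other groups, and the Mettl3 WT pair was the widest. The log2 change in Virma cKO was 1.08 ± 0.20 (edgeR, adjusted p = 9.48e-05). In Mettl3 cKO it was 0.37 ± 0.20 (adjusted p = 0.127), with 0.88 without Mettl3 WT replicate 2 (adjusted p = 5.22e-05) and −0.01 without Mettl3 WT replicate 1 (adjusted p = 0.966).

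Lama3, the alpha chain of epithelial anchoring laminin, had 31.6 and 29.9 CPM in the Mettl3 WT libraries, against 22.8 and 20.9 for Mettl3 cKO. The Virma WT libraries had 32.6 and 33.9 CPM, against 19.6 and 21.2 for Virma cKO. Both controls lay above both knockouts, and the controls did not differ by the test (0.11 ± 0.08, edgeR adjusted p = 0.243). Lama3 fell in both, by −0.50 ± 0.08 (log2) in Mettl3 cKO (edgeR, adjusted p = 2.25e-05) and −0.71 ± 0.10 in Virma cKO (adjusted p = 3.55e-06). The falls differed by −0.22 ± 0.13 (adjusted p = 0.216, edgeR; 95% interval −0.50 to 0.06), and by −0.51 (adjusted p = 0.00461) once the trend with length and GC content was removed.

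Lamb3, the beta chain that pairs with Lama3, had 1.08 and 0.359 CPM in the Mettl3 WT libraries, against 2.04 and 1.69 for Mettl3 cKO. For Virma WT it was at 0.835 and 1.07 CPM, and for Virma cKO at 3.62 and 3.95. Its direction was opposite to that of Lama3 in both comparisons, at 6 to 65 counts per library. Lamb3 rose by 1.97 ± 0.40 (log2) in Virma cKO (edgeR, adjusted p = 0.000235). In Mettl3 cKO it rose by 1.37 ± 0.41 (adjusted p = 0.0067), a call lost with DESeq2 (adjusted p = 0.0523), without Mettl3 cKO replicate 1 (adjusted p = 0.0731) and without Mettl3 WT replicate 2, where the value was 0.79. Without Mettl3 WT replicate 1 the value was 2.35.

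Lamb2, the beta chain of synapse and kidney basement membranes, had 75.9 and 80.4 CPM in the Mettl3 WT libraries, against 68.9 and 69.4 for Mettl3 cKO. Levels for Virma WT were 56.3 and 58.9 CPM, against 58.5 and 56.7 for Virma cKO. The Virma groups overlapped, and both lay below the Mettl3 groups. Its log2 difference in Virma cKO was −0.00 ± 0.07, with a 95% interval from −0.15 to 0.14 (edgeR, adjusted p = 0.975). It fell by −0.18 ± 0.05 in Mettl3 cKO (adjusted p = 0.00687, edgeR), a call lost with DESeq2 (adjusted p = 0.0552) and without Mettl3 cKO replicate 1 (adjusted p = 0.0521). Against Virma WT the same libraries were higher by 0.26 ± 0.06.

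Lama2 shares 631 exon bases with the antisense gene Gm48084, and Lama3 shares 197 with Gm29200, in GENCODE M21. Whether counting used strand is not stated in the labels, so their counts may hold reads of those genes.

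Levels of different chains were compared per kb of transcript (normalised CPM divided by the length of 1 GENCODE transcript per gene). Their order can depend on the length used, since only 4821 of the 7622 bases of Lamc1 are coding. In Mettl3 WT, Lamb1 stood at 431 ± 2.68 (SD, n = 2), Lama1 at 382 ± 1.55 and Lamc1 at 361 ± 1.64 CPM per kb. Lama5 followed at 32.4 ± 0.900 and Lamb2 at 13.9 ± 0.567, and the other 4 chains were each at 3.22 CPM per kb or less in every library. In Virma cKO the order was Lamc1 at 87.7, Lamb1 at 71.7, Lama5 at 46.1 and Lama1 at 30.3 CPM per kb, so that Lama5 lay above Lama1.

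Among the alpha chains, Lama1 made up 91.3 ± 0.171% (SD, n = 2) of the RNA per length in Mettl3 WT, 85.6 ± 0.124% in Mettl3 cKO and 87.6 ± 0.209% in Virma WT. In the Virma cKO libraries it made up 37.2 and 37.4%, and Lama5 57.0 and 56.6%. The Lama5 share had been 7.75 ± 0.232% in Mettl3 WT, 13.1 ± 0.203% in Mettl3 cKO and 11.01 ± 0.194% in Virma WT. Among the beta chains Lamb1 made up 96.8 ± 0.0899% for Virma WT, against 86.4 and 87.0% for Virma cKO, with Lamb2 at 12.7 and 12.05% there. A share rises when the other chains fall: the level of Lama5 per kb changed from 36.0 in Virma WT to 46.1 in Virma cKO, and that of Lama1 from 287 to 30.3.

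The ratio of Lama1 to Lamc1 per kb was 1.06 for Mettl3 WT, 0.992 for Mettl3 cKO and 0.912 for Virma WT, against 0.344 and 0.346 for the Virma cKO libraries. That of Lamb1 to Lamc1 was 1.19, 1.19 and 1.004 in the same first 3 groups, and 0.800 and 0.834 in Virma cKO. Both ratios thus changed little from Mettl3 WT to Mettl3 cKO, and more from Virma WT to Virma cKO. The near-even levels in Mettl3 cKO hold by transcript length only. Coding sequence makes up 4821 of 7622 bases in Lamc1, 9249 of 9526 in Lama1 and 5502 of 5784 in Lamb1. By coding length, Lamc1 would stand higher against both partners in every group. Summed by class, the alpha and the beta chains stood at 327 and 326 CPM per kb for Virma WT, and at 81.1 and 82.7 for Virma cKO, beside 314 and 87.7 for Lamc1.

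**Figure D3:**
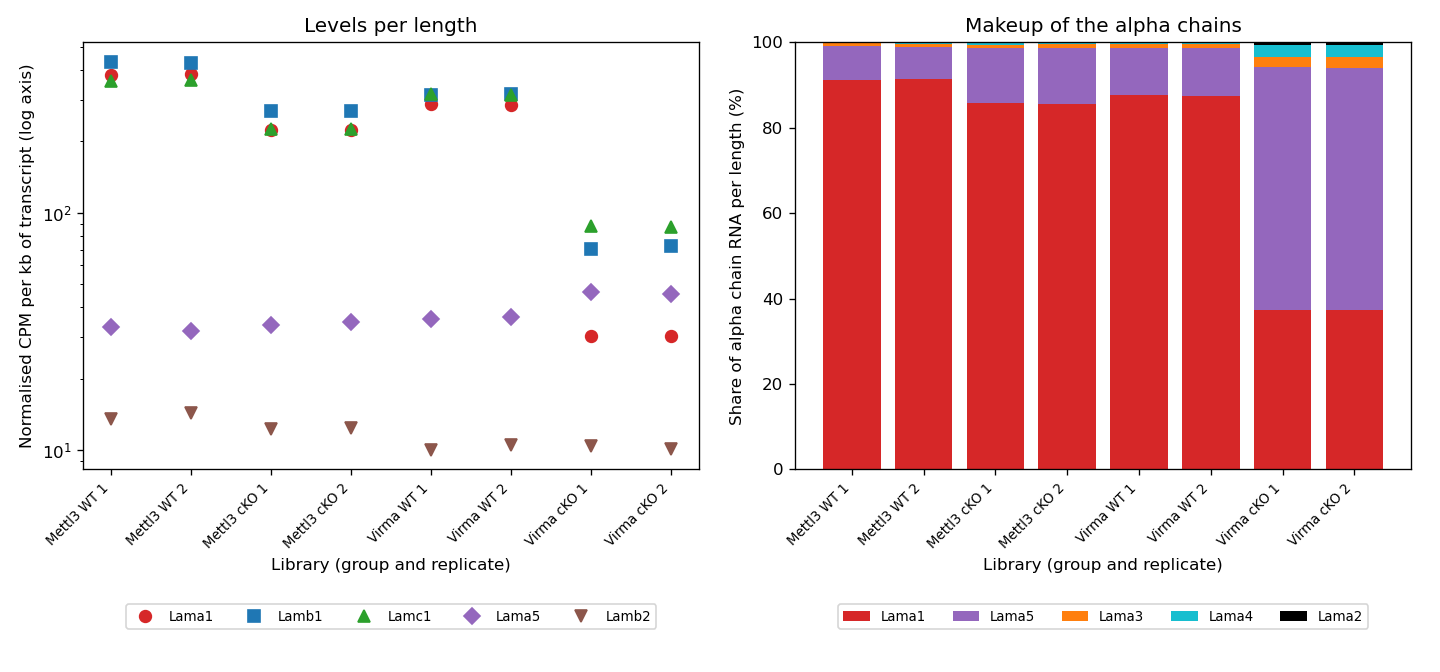
Left, normalised CPM per kb of transcript (log axis) of 5 laminin chains in each of the 8 libraries. Right, the share of each alpha chain in the alpha chain RNA per length (bars add up to 100%). Lama1 makes up 91.2 to 91.5% in the Mettl3 WT libraries and 37.2 and 37.4% in the Virma cKO libraries.

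The transcripts are long: 5 of the 9 exceed 6399 bases, the 90th percentile of tested coding genes, and they run from 4867 bases for Lamb3 to 11388 for Lama5. GGACT, a common form of the sequence that carries m6A, occurred 18 times in the Lama1 transcript (1.89 per kb), 7 times in Lamb1 (1.21 per kb), 5 times in Lamc1 (0.656 per kb) and 14 times in Lama5 (1.23 per kb). Tested coding genes had a median of 1.06 per kb, with quartiles of 0.644 and 1.55. Lama1 was above the upper quartile, and the chains that fell most did not share a high or a low value. The letters do not show methylation, which was not measured in these files.

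There were 6 genes outside the family with profiles closest to the mean profile of Lama1, Lamb1 and Lamc1, by root mean square distance of centred log2 CPM over the 8 libraries among 7996 candidates. These were Tfpi (0.102), Runx1 (0.127), Slc44a3 (0.131), Col4a1 (0.134), Nostrin (0.155) and Foxq1 (0.157). Of the averaged chains, Lamb1 lay at 0.0972, but Lamc1 at 0.291 and Lama1 at 0.371 lay farther from the mean than these 6 genes. Tfpi, an inhibitor of coagulation, averaged 184 CPM for Mettl3 WT, 114 for Mettl3 cKO, 129 for Virma WT and 29.2 for Virma cKO. Lama3, Lamb2 and Lama5 lay far from that profile, at 0.861, 0.971 and 1.26.

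The basement membrane partners of laminins moved in both directions. Of 12 tested basement membrane partners, 6 were lower and 4 higher in Mettl3 cKO (median log2 change −0.08), and 6 lower and 3 higher in Virma cKO (median −0.15). Over all genes tested, 28% were lower and 27.1% higher in Mettl3 cKO, and 26.1% lower and 26.2% higher in Virma cKO. Col4a1 and Col4a2, the chains of the type IV collagen network, fell with the laminin trimer, by −0.55 and −0.50 (log2) in Mettl3 cKO and by −2.13 and −2.01 in Virma cKO. Col4a1 gave 3076 and 3106 CPM in Mettl3 WT and 480 and 488 in Virma cKO, groups of different lines. Its average was 2116 CPM in Mettl3 cKO and 2114 in Virma WT. Between the controls, Virma WT stood below Mettl3 WT for Col4a1 by a log2 difference of −0.55. Hspg2, which encodes perlecan, fell by −0.30 and −0.70, and Sparc, a collagen-binding protein abundant in parietal endoderm, by −0.52 and −1.15. These 4 partners are named for their high level, and those called higher lie among the partners not named.

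The receptors that hold laminin at the cell were more often higher than lower. Of 13 tested, 8 were higher and 2 lower in each comparison, with median log2 changes of 0.23 and 0.43. Among all genes 27.1% were higher in Mettl3 cKO and 26.2% in Virma cKO, with medians of 0.01 and 0.02. Dag1, which encodes dystroglycan, rose by 0.11 in Mettl3 cKO and by 0.76 in Virma cKO, where it gave 688 and 669 CPM against 412 and 388 in Virma WT. Itgb1, the beta subunit of most laminin-binding integrins, fell by −0.17 in Mettl3 cKO and rose by 0.43 in Virma cKO. Itga3 rose by 0.23 and 0.32, and Rpsa, a ribosomal protein also described as a laminin receptor, rose by 0.44 in Mettl3 cKO and had a value of −0.09 in Virma cKO (adjusted p = 0.0523, edgeR). With the length and GC trend removed the receptors' median in Mettl3 cKO was 0.04, with 6 higher and 2 lower, and Itgb1 was no longer called there (adjusted p = 0.0895, edgeR). Dag1 was not called in Mettl3 cKO without Mettl3 cKO replicate 1 (adjusted p = 0.0546, edgeR).

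Of 16 tested genes for the glycosylation by which dystroglycan binds laminin, 9 were higher and 1 lower in Mettl3 cKO, and 5 higher and 1 lower in Virma cKO. Among all genes, 27.1% were higher and 28% lower in Mettl3 cKO, and 26.2% higher and 26.1% lower in Virma cKO. With the length and GC trend removed, 6 of the 16 were higher and 2 lower in Mettl3 cKO. Pomgnt1, an enzyme that extends the O-mannose chain, rose by 0.51 and 0.44. The count of 9 was 4 with DESeq2 or without Mettl3 cKO replicate 2, and 6 without Mettl3 cKO replicate 1.

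Genes for folding, modifying and exporting secreted matrix proteins were mostly lower. Of 14 tested, 10 were lower and 3 higher in Mettl3 cKO, and 11 lower and 2 higher in Virma cKO, with median log2 changes of −0.20 and −0.43. Among all genes 28% were lower in Mettl3 cKO and 26.1% in Virma cKO. Serpinh1, a collagen chaperone, fell by −0.30 and −1.05, Hsp90b1, a chaperone of the endoplasmic reticulum, by −0.14 and −0.80, and P4hb, a disulfide isomerase, by −0.21 and −0.66. Hspa5, the chaperone BiP, was higher by 0.20 in Mettl3 cKO. Its value in Virma cKO, 0.08, passed narrowly (edgeR, adjusted p = 0.0391) and did not pass with DESeq2 (adjusted p = 0.102), with the length and GC trend removed (0.00) or without Virma WT replicate 2 (adjusted p = 0.225), among other settings.

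**Figure D4:**
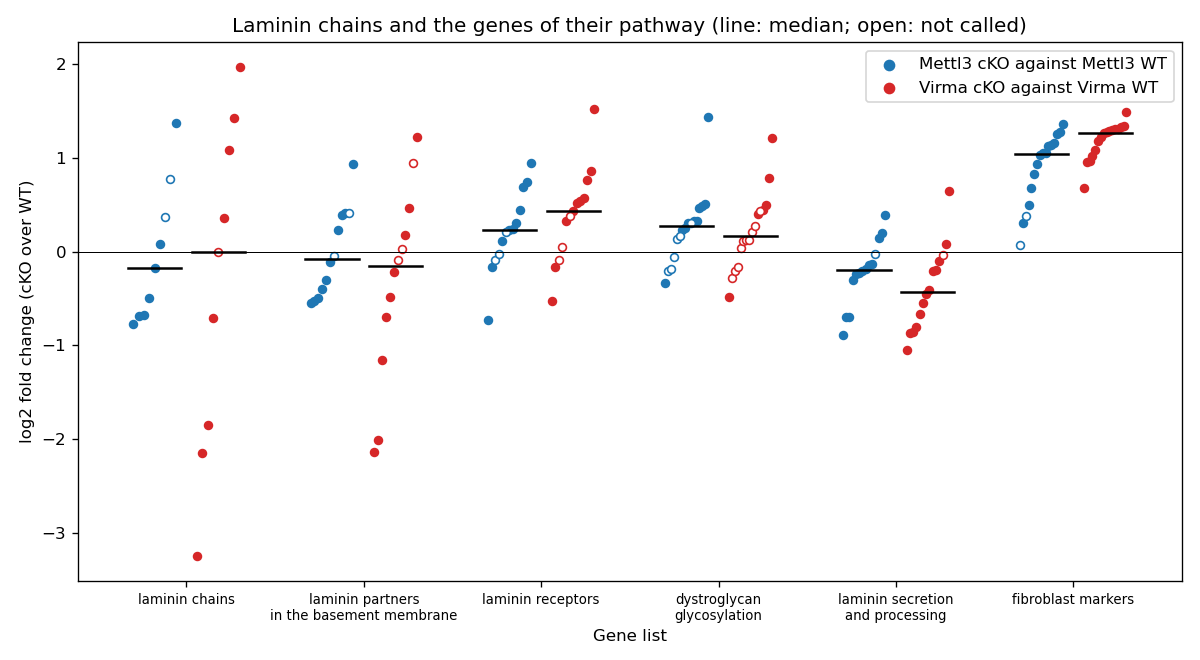
Log2 fold change (y axis) of each tested gene of 6 lists (x axis) in both knockout comparisons, with a line at the median of each list and open points where the adjusted p was not under 0.05. The laminin chains span −3.25 to 1.97 in Virma cKO, and the receptors, dystroglycan glycosylation genes and fibroblast markers have medians above 0.

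Cell type markers moved in the same comparisons as the chains. Of 9 primitive endoderm transcription factors, 7 were lower and none higher in Mettl3 cKO, where 28% of all genes were lower. In Virma cKO 8 were lower and 1 higher, where 26.1% of all genes were lower. The summed level of the 9 factors was 890 to 906 CPM for Mettl3 WT, 646 to 658 for Mettl3 cKO, 799 to 807 for Virma WT and 263 to 269 for Virma cKO. Gata6 and Gata4, which drive the lineage, fell by −0.72 and −0.29 (log2) in Mettl3 cKO and by −3.08 and −2.65 in Virma cKO. Of 9 parietal endoderm genes, 6 were lower and 2 higher in Mettl3 cKO, and 5 lower and 1 higher in Virma cKO. The part of these factors in the laminin falls was not tested.

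Of 16 fibroblast markers, 14 were higher in Mettl3 cKO (27.1% of all genes) and all 16 in Virma cKO (26.2%). The medians were 1.03 and 1.26. In Virma WT against Mettl3 WT, 15 were higher and 1 lower (25.4% and 22.2% of all genes), with a median of 1.49. Set against Virma WT, the Mettl3 cKO libraries had 12 markers lower and 1 higher (29.2% and 29.3% of all genes), with a median of −0.43. The sum of the 16 markers was 247 to 261 CPM for Mettl3 WT and 462 to 468 for Mettl3 cKO. It was 608 to 612 for Virma WT and 1437 to 1440 for Virma cKO, and none of the 16 was at 0 in any library. Col1a1 gave 57.1 and 61.8 CPM in Mettl3 WT, against 132 and 127 in Mettl3 cKO. In Virma WT it gave 170 and 168 CPM, against 421 and 407 in Virma cKO. Lama2 averaged lowest in Mettl3 WT and highest in Virma cKO, the same order of groups as this sum, and the part of such cells in the values of Lama2 and Lama4 was not tested. Of 12 simple epithelium and trophectoderm markers, 3 were higher and 4 lower in Mettl3 cKO, and 6 higher and 3 lower in Virma cKO. For this and the smaller lists that follow, 55.1% and 52.3% of all genes were called in these comparisons. Of 6 tested endothelial markers, 2 were higher and 1 lower in Mettl3 cKO, and 4 were lower in Virma cKO. The sum of the 7 endothelial markers with counts was 112.6 to 113.0 CPM in Mettl3 WT and 116.6 to 116.8 in Mettl3 cKO. It was 86.6 to 88.5 CPM in Virma WT and 60.4 to 61.0 in Virma cKO. Of 3 tested stratified epithelium markers, 1 was higher and 1 lower in Virma cKO, and none was called in Mettl3 cKO (edgeR). Of 3 tested netrins, laminin-related guidance proteins, Ntn1 rose by 0.94 in Mettl3 cKO and 0.42 in Virma cKO, and Ntn3 fell by −2.22 in Virma cKO. The Virma call of Ntn1 (edgeR, adjusted p = 0.0174) was lost with DESeq2 (adjusted p = 0.163), after removal of the trend with length and GC (adjusted p = 0.0706) and without Virma WT replicate 1 (adjusted p = 0.147).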

How the data were processed

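The authors deposited 1 table of raw counts per gene symbol for the 8 libraries, whose titles gave the groups. Per the labels' protocols, TRIzol was used for extraction, and both a SMARTer stranded kit and a VAHTS kit for library preparation. The kit of each library is not stated in the labels. The build mm39 and the tools STAR 2.7.11b, Subread, DESeq2, Trim Galore and FastQC 0.12.1 are named per the submitters' processing notes. The role of each tool, the annotation and the strand setting are not given in those notes.

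Counts were tested with edgeR 4.0.16 in R 4.3.3 (quasi-likelihood), using TMM factors, robust dispersion, filterByExpr (14229 genes kept), 1 fit of all 4 groups with 3 residual degrees of freedom and Benjamini-Hochberg adjustment over all genes, two-sided, threshold 0.05. The Virma cKO pair entered as its rounded mean with a spread taken from the other groups. Normalised CPM used the TMM factors of the 8 libraries. Alternatives were DESeq2 1.42.0, its size factors, total count scaling, no filter, 8 separate libraries, a replicate block, removal of a loess trend with length and GC content, another control, coding length, and leaving out each library. The scripts were tested on simulated data.

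The members and the 13 gene lists were chosen with earlier results of these data known. From each list the text names up to 4 tested genes with the highest average log2 CPM, besides all 9 chains, Mettl3, Virma and the 6 genes of most similar profile. A gene of these lists is not reported here. Pou5f1, Sox2 and Nanog were added as a check of the cell type. Transcript lengths and GGACT counts were taken from GENCODE M21 (GRCm38, not the build of the authors), matched by symbol for 13944 of the 14229 tested genes, and promoters from RefSeq on GRCm38.p6.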

Additional observations from a re-analysis of the deposited data

Results flagged for a closer look

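The change in Virma cKO differed from that in Mettl3 cKO, by a test of the difference itself (edgeR interaction contrast, Benjamini-Hochberg adjusted over all genes), for 4 of the 9 laminin chains. The log2 difference of the effects was −2.47 for Lama1, −1.46 for Lamb1, −1.16 for Lamc1 and 0.28 for Lama5. Lama1, Lamb1 and Lamc1 were lower in both knockouts, and Lama5 was higher in both, with its Mettl3 call depending on the setting. The controls also differed, and Virma WT stood below Mettl3 WT for Lama1, Lamb1 and Lamc1.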

How the results depend on the processing

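No chain changed its call in Virma cKO against Virma WT under any alternative run. Of 727 alternative values of single chains over all comparisons, 670 kept their direction and side of the threshold, 20 passed only under the alternative, 22 no longer passed, 11 changed sign without passing in either fit and 4 that had passed turned direction. The 11 were Lama2 and Lama4 in Mettl3 cKO, Lamb2 in Virma cKO (0.12 with total count scaling), Lamb3 for the difference of the effects, Lama3, Lama4 and Lamb3 between the controls, and Lama4 for Mettl3 cKO against Virma WT. The 4 were in Mettl3 cKO: Lama5 with the length and GC trend removed (−0.0187), with that and the replicate block (−0.0184) and against Virma WT (−0.0754), and Lamb2 against Virma WT (0.26). The cause was not tested. Called genes fell from 5569 to 3593 with DESeq2 for the difference of the effects, and from 6773 to 4493 for Virma WT against Mettl3 WT. For the difference of the effects total count scaling gave 3437 higher and 2267 lower, beside 2552 and 3017, and for the controls the length and GC trend removed gave 2905 higher and 3865 lower, beside 3613 and 3160.

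Leaving out 1 library at a time gave 6179 to 8208 called genes in Mettl3 cKO, 6036 to 8674 in Virma cKO, 4399 to 6656 for the difference of the effects, 4923 to 7334 between the controls and 6577 to 9440 for Mettl3 cKO against Virma WT. Deviations of same-numbered libraries had correlations from −0.0150 to 0.0398 over the 14229 tested genes. Counting noise of genes with few counts weighs on these values, so they cannot exclude a pairing by number. The replicate block gave 8343, 8960, 6862 and 7390 calls for the first 4 comparisons, beside 8283, 8914, 6768 and 7267 with 8 separate libraries and no block. Lama2 and Lamb3, at 6 to 86 counts per library, had the widest errors of the 9 chains.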
